A study of Mus musculus with 16 samples.

Results

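The transcripts of 10 antioxidant genes were followed in mouse gastrocnemius, the large calf muscle, in normal mice and in mice with cancer cachexia, the muscle wasting that accompanies tumors. The genes were taken by name from a fixed list of glutathione, thioredoxin and NRF2 target genes, and all 10 were found among the 21923 genes in the expression table. The rule used no measured value, but the genes were chosen with earlier results of these data known. They were the transcription factor gene Nfe2l2, the glutathione synthesis genes Gclc and Gclm, the glutathione reductase gene Gsr, the glutathione transferase genes Gsta3 and Gstm1, the secreted peroxidase gene Gpx3, the thioredoxin reductase gene Txnrd1, the sulfiredoxin gene Srxn1 and the quinone reductase gene Nqo1. Gsta3 is also in a list of atrophy genes that the study chose on these same samples, so its direction in the cachectic mice is not independent evidence.

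NRF2, the protein made from Nfe2l2, is held at low levels by KEAP1, which marks it for degradation. Oxidants and electrophiles free it from KEAP1, and it then binds with a small MAF partner to antioxidant response elements near its target genes. The repressor BACH1 competes with NRF2 for these elements. The targets make glutathione, reduce it again after oxidation, conjugate it to reactive compounds and keep the thioredoxin system reduced, and skeletal muscle relies on both systems to handle the peroxides formed during contraction.

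The study compared 4 groups of 4 adult mice each. NOR mice carried no tumor and received PBS. CAC mice carried subcutaneous tumors injected on day 0 and received PBS daily by intraperitoneal injection from day 9. AM mice carried the same tumors and received amiloride, a potassium-sparing diuretic that the study used to hinder exosome release, at 2 mg/kg daily from day 9. KD mice carried tumors of Rab27 knock-down cells, injected in the same way, in which shRNAs against Rab27a and Rab27b had been expressed from a lentivirus, and the knock-down was in the tumor cells, so that muscle transcripts do not check it. The muscles were collected on day 30. Mice 1 and 2 of every group were labelled C57BL/6 and mice 3 and 4 BABL/c, which the protocol writes as BALB/c. The C57BL/6 tumors were of the LLC lung carcinoma line and the BABL/c tumors of the CT26 colon carcinoma line, so that strain and tumor line cannot be told apart. The samples are separate mice, and with 4 against 4 the smallest two-sided exact permutation p is 0.0286.

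The libraries held between 35913190 and 61032708 counts. The labelled tissue was checked with 6 skeletal muscle fibre markers, none of which was at 0 in any library and none called in CAC vs. NOR, and 3 sets of libraries stood apart in other markers. In mouse AM 1 the summed level of 6 hepatocyte genes was 1680 CPM (CPM being gene counts scaled to a common library size with TMM factors), against at most 21.3 CPM in any other library. In NOR 1, CAC 1, CAC 4, KD 2 and KD 3 the sum of 6 lymphocyte genes was at most 2.36 CPM, against at least 22.6 CPM in the other libraries. KD 3 had 0 CPM for 4 of 4 Y-linked genes, which summed to at least 110 CPM in every other library. The protocol names male and female BALB/c mice, and the labels give no sex per mouse. In bulk muscle, fewer cells of a type and less RNA per cell cannot be told apart.

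The promoters were searched for the core of the antioxidant response element, TGACNNNGC, on both strands, because it is the site through which NRF2 reaches its targets. RefSeq start sites of build GRCm38.p6 were matched for 8 of the 10 genes, all but Gclc and Gsr, with 11 windows of 300 bases, each running from 250 bases before the start to 50 after it. The core was present for 5 of these 8 genes (62.5%), against 14% of the 27025 genes with a window and 23% of the genes of the pathway lists below. The stretches holding it are shown in the direction of the gene with the core in capitals. It reads on the opposite strand in Gclm, Txnrd1 and Srxn1.
Gclm: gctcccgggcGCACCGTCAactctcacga
Gsta3: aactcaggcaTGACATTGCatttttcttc
Nfe2l2: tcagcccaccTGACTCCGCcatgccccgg
Txnrd1: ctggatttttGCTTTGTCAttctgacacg
Srxn1: gcagtgggcaGCTAGGTCA

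The Gclm stretch lies at chr3:122245413-122245441 on the plus strand, and the core begins 134 bases before the start. The Gsta3 stretch lies at chr1:21240454-21240482 on the plus strand, 121 bases before the start. The Nfe2l2 stretch, which places the core in the promoter of the NRF2 gene itself, lies at chr2:75704885-75704913 on the minus strand, 240 bases before the start. The Txnrd1 stretch lies at chr10:82859104-82859132 on the plus strand, 92 bases before 1 of its 3 RefSeq starts. The Srxn1 stretch lies at chr2:152105542-152105560 on the plus strand, and its core begins 28 bases after the start, within the transcribed part. These letters were not found in the windows of Gpx3, Gstm1 and Nqo1. Matches in sequence alone are a description of these windows and not binding sites.

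The levels of the 10 transcripts were compared with each other only as FPKM, the deposited values scaled for transcript length and library depth. In the NOR mice Gstm1 had the highest level, 219 ± 18.4 FPKM (SD, n = 4), and Gpx3 had 202 ± 95.4 FPKM, a difference smaller than the spread of Gpx3. Nfe2l2 had 25.4 ± 4.15 FPKM and Txnrd1 25.1 ± 0.917 FPKM, and these neighbours did not differ beyond their spread. Srxn1 followed with 20.3 ± 7.2 FPKM and Nqo1 with 15.4 ± 1.31 FPKM, a gap within the spread of Srxn1, and then Gclm with 11.5 ± 2.81 FPKM. The reductase Gsr had 8.41 ± 0.79 FPKM, the catalytic synthesis subunit Gclc had 5.86 ± 0.549 FPKM and the transferase Gsta3 had 4.4 ± 4.28 FPKM. The modifier subunit Gclm was therefore listed above the catalytic subunit Gclc. Over all 16 mice Gclc was among the steadiest, between 4.57 and 8.97 FPKM, whereas Gsta3 spanned 1.23 to 25.91 FPKM, a 21.1-fold range, also within groups. Among 24 glutathione transferase genes Gstm1 ranked 1 and Gsta3 ranked 16 by mean NOR level. By 31-base words of their annotated transcripts, Gstm1 shared 28.8% with other genes, mainly a Gstm2 pseudogene, so its values are uncertain. Gclm shared 6.82%, mainly with the overlapping antisense gene Gm17494, Gsta3 overlaps the antisense gene Gm28836, and whether the counting used strand is not given in the sources used here.

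**Figure D1:**
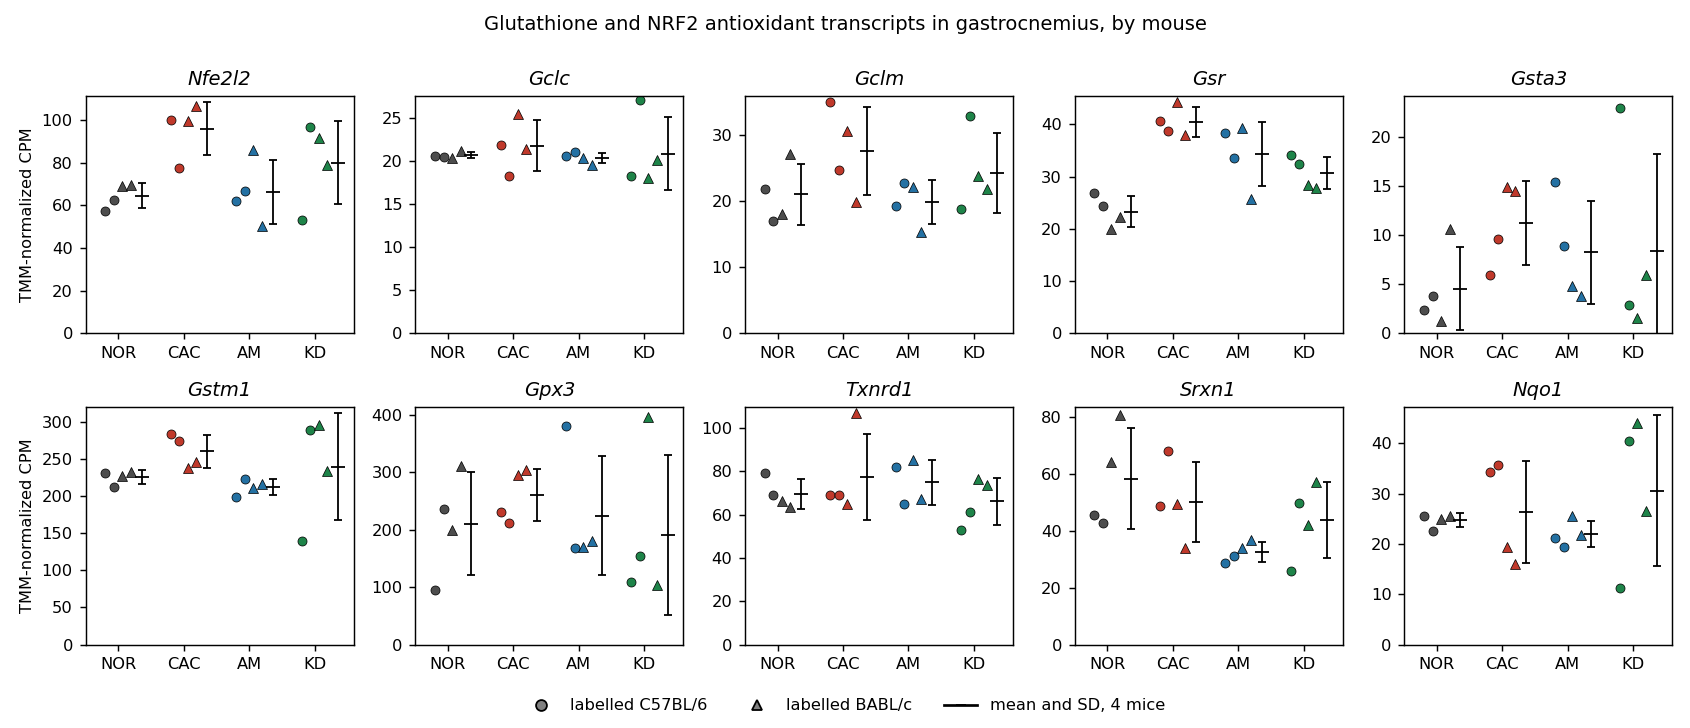
Normalized CPM (vertical axes, starting at 0) of each of the 10 transcripts in each mouse of the groups (NOR, then CAC, AM and KD). Circles are mice labelled C57BL/6, triangles mice labelled BABL/c, and bars the mean and SD of 4 mice, the lower bar of Gsta3 in KD running past 0. The 4 CAC mice lie above the 4 NOR mice for Gsr, Nfe2l2 and Gstm1, as for 12.3% of all genes tested.

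The comparison of CAC with NOR mice asks what cachexia changed. Glutathione reductase was the 1 transcript of the 10 that rose by the criteria used, an FDR no higher than 0.05 together with a change of 1.5-fold or more, and none fell. Among all 14666 genes tested, 4.32% were called higher and 5.13% lower, so 1 of 10 is a share near the background. These were 633 genes higher and 753 lower, and 959 and 619 with total counts in place of TMM factors, a scaling that set the median log2 difference of all genes at 0.14. Nfe2l2 passed the FDR alone with a 1.48-fold higher level, and the other 8 did not pass it. Of the 10 estimates 9 were above 0, with a median log2 difference of 0.26 against 0.01 over all genes tested.

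Gsr, on chr8:33652523-33698163 of GRCm38 (plus strand), encodes the enzyme that returns oxidized glutathione to its reduced form with NADPH. Its levels in CPM were 26.8, 24.3, 19.9 and 22.3 in NOR mice 1 to 4 and 40.7, 38.8, 44.3 and 37.9 in CAC mice 1 to 4. Every CAC mouse lay above every NOR mouse, a pattern seen for 12.3% of all genes tested. The log2 fold change was 0.79 (SE 0.111, FDR 0.00479), from means of 23.3 ± 2.94 CPM (SD, n = 4) to 40.4 ± 2.84 CPM (SD, n = 4). The call was kept in 8 of 8 fits that left out 1 mouse, with log2 fold changes between 0.72 and 0.87. Within the mice labelled C57BL/6 alone it was 0.68 (FDR 0.062) and within those labelled BABL/c alone 0.96 (FDR 0.138), each with 2 mice against 2. Erythrocyte markers were also higher in CAC. Of 6 such genes 5 were called higher in CAC, and their sum was 1050 to 1360 CPM in NOR, 3630 to 8620 CPM in CAC, 961 to 15900 CPM in AM and 2200 to 21400 CPM in KD, with none of the 6 at 0 in any library. KD 2, with the highest sum, had 32.4 CPM of Gsr. The part of erythrocytes in the Gsr result was not tested. Of 6 neutrophil markers 3 were also called higher in CAC. Their sum was 4.18 to 36.4 CPM in NOR, 104 to 234 CPM in CAC, 17 to 249 CPM in AM and 13.1 to 360 CPM in KD, with 1 of the 6 at 0 in NOR 2. The part of neutrophils in the Gsr result was not tested. The sum of 6 muscle fibre markers was 114000 to 171000 CPM in NOR and 51000 to 116000 CPM in CAC, lowest in CAC 3 (51000 CPM) and CAC 4 (73500 CPM), with 104000 to 133000 CPM in AM and 89400 to 149000 CPM in KD. None of the 6 was at 0, and the part of this difference in the Gsr and Nfe2l2 results was not tested. The sum of 6 fibroblast genes was 2320 to 3070 CPM in NOR, 840 to 1380 CPM in CAC, 1910 to 2660 CPM in AM and 748 to 3120 CPM in KD, with none at 0. Of these 6 genes 2 were called lower in CAC than in NOR, and their part in the results was not tested.

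Nfe2l2, which encodes NRF2 from chr2:75675513-75704641 on the minus strand of GRCm38, had 57.2, 62.5, 69.1 and 69.5 CPM in the NOR mice and 100.2, 77.7, 99.3 and 106.5 CPM in the CAC mice. The groups did not overlap, as for 12.3% of all genes tested in that direction. The log2 fold change was 0.57 (SE 0.119, FDR 0.0183), just under the 1.5-fold limit, and 0.57 in each labelled strain taken alone within 1 model. It passed the fold limit as well without NOR 3 (0.60), without NOR 4 (0.61) or without CAC 2 (0.66), and it missed the FDR without NOR 2 (FDR 0.0603), without CAC 1 (FDR 0.0514) or with all 16 libraries in 1 fit (FDR 0.0655). In fits of the mice labelled C57BL/6 alone (0.61, FDR 0.14) or BABL/c alone (0.56, FDR 0.163) it also missed the FDR, and with total counts it met both criteria (0.69, FDR 0.0294). Without the 5 libraries lowest in lymphocyte genes, a choice made after seeing the data, it was 0.40 (FDR 0.164), while Gsr was 0.91 (FDR 0.0373) in that fit.

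The glutathione synthesis genes gave smaller estimates. Gclc, the catalytic subunit of glutamate-cysteine ligase, ranged from 20.4 to 21.2 CPM in NOR and from 18.3 to 25.5 CPM in CAC, a log2 fold change of 0.08 with a 95% interval from -0.18 to 0.33. Gclm, the modifier subunit of the same enzyme, had 21.8, 17.1, 18.1 and 27.2 CPM in NOR and 35, 24.7, 30.7 and 19.8 CPM in CAC. The highest NOR mouse lay above a pair of the CAC mice, and the log2 fold change of 0.39 had an interval from -0.09 to 0.87 (FDR 0.265), and it was 0.25 without CAC 1.

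The transferases differed in level and in spread. Gsta3, an alpha-class transferase, had 2.36, 3.85, 1.28 and 10.7 CPM in NOR and 5.89, 9.62, 14.9 and 14.5 CPM in CAC. The high value of NOR 4 lay within the CAC range, and the largest log2 fold change of the 10, 1.3, had an interval from -0.11 to 2.72 (FDR 0.206). Without NOR 4 it was 2.17 (FDR 0.032), which met both criteria. Adipocyte markers also differed between these mice. The sum of 6 adipocyte genes was 1610 CPM in NOR 4, against 463 to 570 CPM in the other NOR mice. It was 1500 and 1790 CPM in CAC 4 and CAC 3, against 571 and 853 CPM in CAC 1 and CAC 2. In AM the order of the mice differed between the sum and Gsta3. AM 2 had the highest adipocyte sum of AM, 2170 CPM, with 8.88 CPM of Gsta3, while AM 1 had 886 CPM with 15.4 CPM of Gsta3. In KD, unlike AM, the sum and Gsta3 gave the same order of the mice. The sums were 2310, 1580, 664 and 501 CPM and Gsta3 was 23, 5.95, 2.87 and 1.53 CPM in KD 1, KD 4, KD 2 and KD 3. Over the groups the adipocyte sum ran from 463 to 1610 CPM in NOR, 571 to 1790 CPM in CAC, 778 to 2170 CPM in AM and 501 to 2310 CPM in KD. None of the 6 genes was at 0 in any library, and 0 of 6 were called in any of the 3 comparisons. The part of adipocytes in the Gsta3 values was not tested. Gstm1, a mu-class transferase, had 212.6 to 232.6 CPM in NOR and 237 to 283.8 CPM in CAC, so that the groups did not overlap, as for 12.3% of all genes in that direction. Its log2 fold change was 0.21 (FDR 0.193) with an interval from -0.01 to 0.42.

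The peroxide and thioredoxin genes overlapped between the groups. Gpx3, the plasma glutathione peroxidase, spanned 95.7 to 310 CPM in NOR and 211.5 to 302.8 CPM in CAC (log2 fold change 0.30, interval -0.42 to 1.03), and its estimate was 0.06 without NOR 1 and 0.55 without NOR 4. Txnrd1, the cytosolic thioredoxin reductase, had 63.6 to 79.3 CPM in NOR and 64.8 to 107 CPM in CAC, where CAC 4 alone exceeded the NOR range (0.16, interval -0.23 to 0.54). Srxn1, which repairs overoxidized peroxiredoxins, gave the 1 estimate below 0, with 42.6 to 80.8 CPM in NOR and 33.7 to 68 CPM in CAC (-0.22, interval -0.81 to 0.37), and its estimate was -0.41 without CAC 2 and -0.02 without NOR 4. Nqo1, a quinone reductase much used as a marker of NRF2 activity, had 22.6 to 25.6 CPM in NOR and 15.9 to 35.7 CPM in CAC (0.09, interval -0.49 to 0.67). A p that misses the threshold does not show that these levels were alike, and for Gpx3, Srxn1 and Nqo1 the interval still held changes of 1.5-fold.

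**Figure D2:**
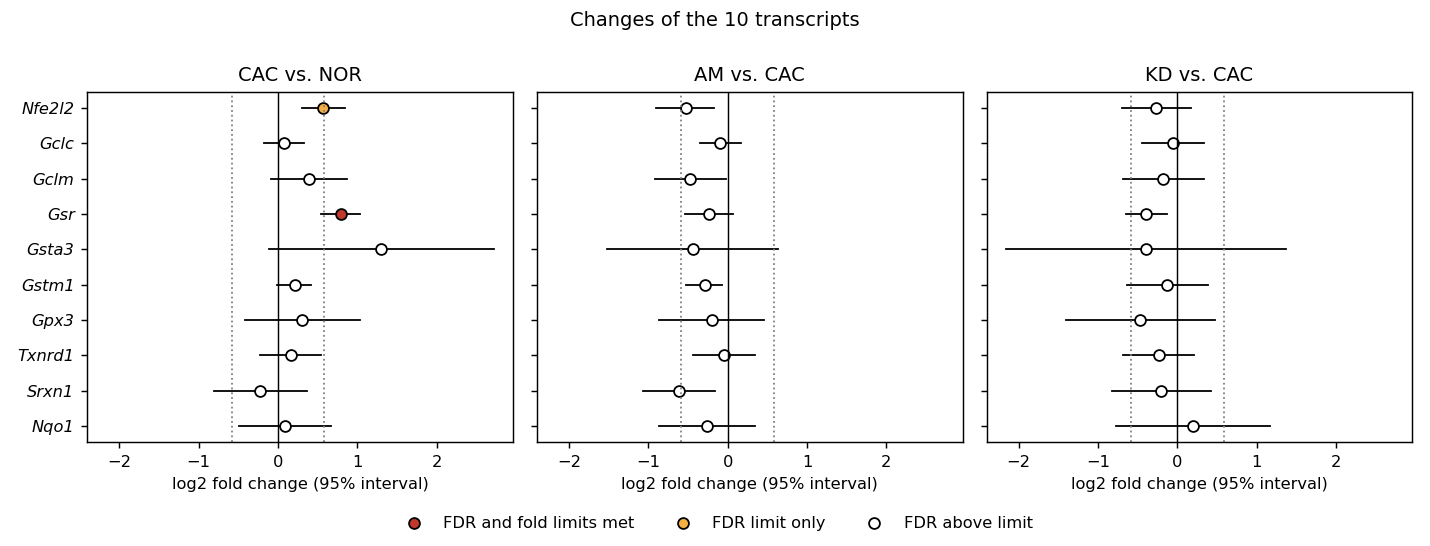
Log2 fold changes (horizontal axis) of the 10 transcripts in 3 panels, CAC against NOR, AM against CAC and KD against CAC, with lines for the 95% interval and dotted lines at the 1.5-fold limits. The filled red point of Gsr in CAC vs. NOR is the 1 that met both criteria, the orange point of Nfe2l2 met the FDR alone, and all 10 points of AM vs. CAC lie below 0.

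The comparison of AM with CAC mice asks what amiloride changed in tumor-bearing mice, and it shares the CAC libraries with the comparison above, so that its direction is not independent of it. None of the 10 transcripts was called by edgeR in either direction, where 1.63% of 14674 genes were called higher and 2.03% lower. At an unadjusted p below 0.05 there were 4 of the 10, against 21.7% of all genes in either direction. DESeq2 called 1 of the 10 lower, where it called 479 of all 14674 genes lower. By limma-voom 0 of the 10 were called, where it called 256 of all genes higher and 297 lower. All 10 estimates were below 0, with a median of -0.28 against 0.01 over all genes tested. Fibroblast genes moved between the same groups, with sums of 840 to 1380 CPM in CAC and 1910 to 2660 CPM in AM and 2 of 6 called higher in AM, and their part was not tested.

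Nfe2l2 had 61.9, 66.8, 85.8 and 50.1 CPM in AM mice 1 to 4, and AM 3 lay above the lowest CAC mouse, with a log2 fold change of -0.53 (SE 0.161, FDR 0.0958). By DESeq2 it was -0.52 (FDR 0.0488), short of the 1.5-fold limit. Srxn1 had 28.8, 31, 34.1 and 36.8 CPM in AM, against 48.8, 68, 49.5 and 33.7 CPM in CAC, and CAC 4 alone lay within the AM range. Its log2 fold change of -0.61 (SE 0.201) had an FDR of 0.119 by edgeR and of 0.0484 by DESeq2, and it met both criteria by edgeR without CAC 4 (-0.76, FDR 0.0396). Gstm1 had 198.5 to 223 CPM in AM, all below the 237 to 283.8 CPM of CAC (log2 fold change -0.29, FDR 0.127), a lack of overlap seen downward for 9.63% of all genes. By DESeq2 Gstm1 was -0.28 (FDR 0.0343), also short of the 1.5-fold limit. Gclm had 15.3 to 22.8 CPM in AM, and CAC 4 alone of the CAC mice lay within that range (-0.47, FDR 0.21).

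Gsr, the transcript called in CAC vs. NOR, had 38.4, 33.6, 39.2 and 25.8 CPM in AM. Mice AM 1 and AM 3 lay within the CAC range of 37.9 to 44.3 CPM, AM 2 and AM 4 below it, and the log2 fold change was -0.24 with an interval from -0.54 to 0.07, ranging from -0.3 without AM 1 to -0.13 without AM 4. Gsta3 had 15.4, 8.88, 4.82 and 3.81 CPM in AM (-0.44, interval -1.52 to 0.64), and the estimate ran from -0.94 without AM 1 to -0.20 without AM 4. The highest Gsta3 and the highest Gpx3 (379.7 CPM, against 167.9 to 179.5 CPM in the other AM mice) were both in AM 1, the library with hepatocyte transcripts. There 6 of 6 hepatocyte genes were present, with 1220 CPM of albumin. In the CAC mice the sum of these 6 genes was at most 2.22 CPM, with 3 to 5 of the 6 at 0. Over the groups the sum ran from 0.352 to 11.1 CPM in NOR, 0.0453 to 2.22 CPM in CAC, 1.98 to 1680 CPM in AM and 0.529 to 14.3 CPM in KD. The part of hepatocyte RNA in the Gsta3 and Gpx3 values of AM 1 was not tested. The estimates of Gclc (-0.09), Txnrd1 (-0.05) and Nqo1 (-0.26) had intervals on both sides of 0, and that of Nqo1 was -0.44 without CAC 4 and -0.07 without CAC 2.

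**Figure D3:**
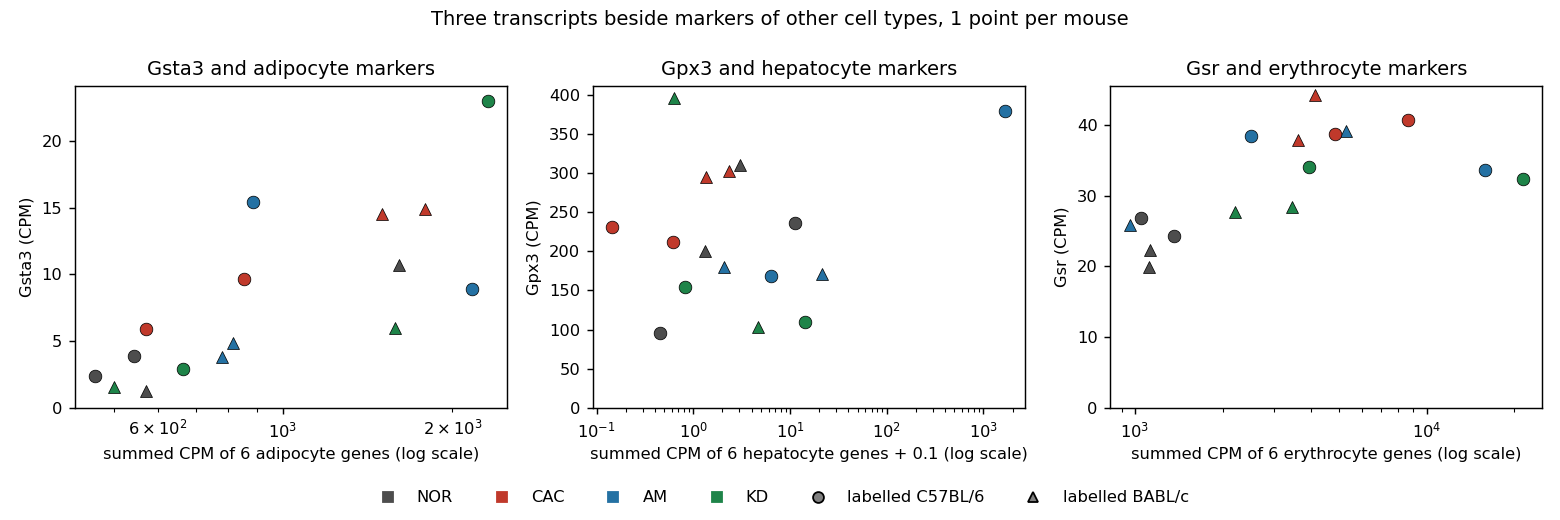
Levels of Gsta3, Gpx3 and Gsr (vertical axes, CPM from 0) against the summed level of 6 adipocyte, hepatocyte or erythrocyte genes (horizontal axes, log scale) in each of the 16 mice, coloured by group. KD 1 has the highest adipocyte sum and the highest Gsta3, AM 1 stands alone at 1680 CPM of hepatocyte genes, and the NOR mice have 1050 to 1360 CPM of erythrocyte genes and at most 26.8 CPM of Gsr.

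The comparison of KD with CAC mice asks what the Rab27 knock-down in the tumor cells changed in the muscle, with the same CAC libraries. By edgeR, DESeq2 and limma-voom 0 of the 10 transcripts were called. In this comparison edgeR called 0% of 14593 genes higher and 0.00685% lower, and 11.1% had an unadjusted p below 0.05, among them 1 of the 10. Of the same genes DESeq2 called 230 higher and 102 lower, and limma-voom called 0. Of the 10 estimates 9 were below 0, with a median of -0.21 against 0 over all genes tested.

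Gsr was the 1 with an unadjusted p below 0.05. It had 34, 32.4, 28.5 and 27.7 CPM in KD mice 1 to 4, all below the CAC mice, which was seen for 3.37% of all genes, and the log2 fold change was -0.39 (SE 0.114, FDR 0.293). Nfe2l2 had 53, 96.6, 91.3 and 78.7 CPM in KD, where KD 1 alone lay below the CAC range, and its estimate was -0.27 with an interval from -0.7 to 0.17, and -0.12 without KD 1. The other 8 intervals all held 0. The spread within KD was wide: Gsta3 ran from 1.53 to 23 CPM, Nqo1 from 11.1 to 44 CPM and Gpx3 from 103 to 396.2 CPM. Leaving out single KD mice moved the estimates of Gsta3, -0.40 with all mice but -1.7 without KD 1 and -0.05 without KD 3, and of Gpx3, -0.47 with all mice but -1.08 without KD 3 and -0.24 without KD 4.

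The KD mice divided in their other transcripts. KD 2 and KD 3 had 969 and 748 CPM of 6 fibroblast genes, within or below the 840 to 1380 CPM of the CAC mice, and KD 1 and KD 4 had 2860 and 3120 CPM, within or above the 2320 to 3070 CPM of the NOR mice. Of 6 macrophage genes KD 2 and KD 3 had 57.8 and 37.2 CPM and KD 1 and KD 4 had 302 and 293 CPM, with 91.3 to 223 CPM in NOR, 178 to 227 CPM in CAC and 160 to 227 CPM in AM. Of 6 slow fibre genes KD 2 and KD 3 had 5710 and 4020 CPM and KD 1 and KD 4 had 1210 and 1900 CPM, with 1070 to 2900 CPM in NOR, 824 to 2480 CPM in CAC and 1430 to 2260 CPM in AM. No gene of these 3 lists was at 0 in any library, and 0 of 6 of each were called in KD vs. CAC. KD 2 and KD 3 held the 2 highest KD levels of Nfe2l2, Gstm1 (289.3 and 295.1 CPM, against 139.5 and 232.9 CPM), Nqo1 (40.5 and 44 CPM, against 11.1 and 26.6 CPM), Gpx3 (153.9 and 396.2 CPM, against 109.2 and 102.8 CPM) and Gclm (32.8 and 23.8 CPM), and the 2 lowest of Gsta3 (2.87 and 1.53 CPM, against 23 and 5.95 CPM). Gsr did not divide in this way. The part of the other cell types in these differences was not tested. Without KD 2 and KD 3, a choice made after seeing the data, the estimate of Nqo1 turned from 0.20 to -0.47 and that of Gsta3 from -0.40 to 0.39. That of Gpx3 moved from -0.47 to -1.28 (FDR 0.0505). In that fit 0 of the 10 were called, against 64 of all 15178 genes higher and 69 lower.

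The AM and KD mice were also compared with NOR mice and with each other, and 0 of the 10 transcripts were called by edgeR. DESeq2 called Srxn1 lower in AM than in NOR, where it called 20 of all 14738 genes lower and 50 higher. It called none of the 10 in KD vs. NOR (27 of 14748 genes higher and 4 lower) or in AM vs. KD (0 of 14745 higher and 1 lower). By limma-voom none of the 10 was called in the 3, where it called 0 of all genes. Among all genes edgeR called 0% in AM vs. NOR, in KD vs. NOR and in AM vs. KD. In AM vs. NOR 2 transcripts had an unadjusted p below 0.05, against 9.19% of all genes. Gsr was higher by 0.57 in log2 (FDR 0.518), where 1 of the AM mice lay within the NOR range. Srxn1 was lower by a log2 fold change of -0.83 (FDR 0.518), every AM mouse lying below every NOR mouse, as for 2.58% of all genes, with a DESeq2 FDR of 0.042. In KD vs. NOR Gsr alone had such a p, against 3.54% of all genes, with a log2 fold change of 0.41 (FDR 0.999), and every KD mouse lay above every NOR mouse, as for 1.23% of all genes. In AM vs. KD none of the 10 had such a p, against 1.11% of all genes. By mean, the order of Gsr was CAC (40.4 CPM), AM (34.3 CPM), KD (30.7 CPM) and NOR (23.3 CPM), and the neighbours CAC with AM and AM with KD overlapped.

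The mice labelled BABL/c and C57BL/6 were compared over all 16 mice with group as a term. By edgeR no transcript of the 10 was called or had an unadjusted p below 0.05, and 0% of all 15220 genes were called higher or lower. Nor was any of the 10 called by limma-voom. With no gene called by edgeR, its count among the 10 says nothing particular to them. The change from NOR to CAC was then compared between the labelled strains, and 0 of the 10 differences passed the FDR, as did 0% of all 14666 genes. At an unadjusted p below 0.05 there were 2 of the 10, against 4.89% of all genes. Nqo1 had 34.3 and 35.7 CPM in the CAC mice labelled C57BL/6, above the 22.6 and 25.5 CPM of their NOR mice, and 19.5 and 15.9 CPM in the CAC mice labelled BABL/c, below the 25 and 25.6 CPM of theirs. The log2 changes were 0.54 and -0.52, a difference of -1.06 (SE 0.201, FDR 0.523). Srxn1 also had opposite signs, with 45.6 and 42.6 CPM in NOR against 48.8 and 68 CPM in CAC labelled C57BL/6, and 64 and 80.8 CPM in NOR against 49.5 and 33.7 CPM in CAC labelled BABL/c. Its log2 changes were 0.40 and -0.80 (difference -1.2, SE 0.346, FDR 0.917). From CAC to AM, 2 differences had an unadjusted p below 0.05, against 12.4% of all genes. Nqo1 changed by -0.77 and 0.42 in log2 (FDR 0.269), and Gsta3 by 0.66 in C57BL/6 and -1.77 in BABL/c (FDR 0.269), the hepatocyte-bearing AM 1 being among the former. From CAC to KD none had, against 5.65% of all genes. With 2 mice in each cell, these differences rest on few animals.

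**Figure D4:**
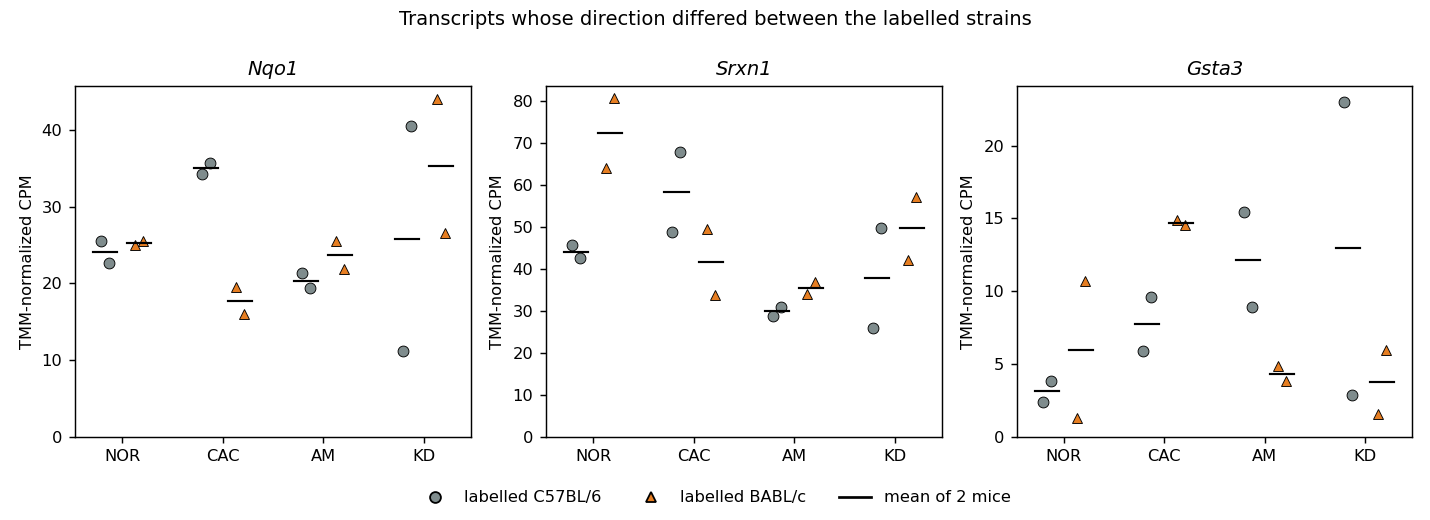
Levels (CPM, vertical axes from 0) of Nqo1, Srxn1 and Gsta3 in mice labelled C57BL/6 (grey circles) and BABL/c (orange triangles), 2 per group, with lines at the means. In CAC, Nqo1 lies above NOR in C57BL/6 and below it in BABL/c; no difference between strains passed the FDR.

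The wider pathway was described with 6 lists of 97 genes in all, 87 of them other than the 10. In CAC vs. NOR 81 of these 87 were tested, of which 2 rose and 1 fell and 78 met neither call, against 4.32% and 5.13% of all genes. Their median log2 difference was 0.09. Among 64 genes that the deposited KEGG annotation places in glutathione metabolism, 50 were tested, and 3 were called higher and none lower, 1 of the 3, Ggt6, having passed the filter on low counts only through the CAC mice.

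By role, 1 of 14 genes of glutathione synthesis and turnover rose in CAC, Gsr itself. Among 20 transferases tested Gstm2 rose, a mu-class neighbour of Gstm1, from 41.1 to 53.4 CPM in NOR to 64.8 to 110 CPM in CAC (log2 fold change 0.94, FDR 0.0116). No peroxidase, superoxide dismutase or catalase gene of 9 tested met both criteria, although 2 passed the FDR upward, against 7.79% of all genes, and 1 downward, against 6.17%. These were cytosolic Sod1 (0.54, FDR 0.0236) and the peroxidase Gpx4 (0.39, FDR 0.0423), which were higher, and mitochondrial Sod2 (-0.54, FDR 0.0458), which was lower. Gpx4 and Sod2 were named after their values were seen. No gene of 17 of the thioredoxin, peroxiredoxin and glutaredoxin list did, with thioredoxin itself, Txn1, at 0.44 (FDR 0.0308). Among 28 other NRF2 targets Akr1b10, an aldo-keto reductase, fell from 38 to 48.8 CPM in NOR to 12.3 to 19 CPM in CAC (-1.43, FDR 0.00214). From the KEGG genes Ggt6, of the gamma-glutamyl transferase family, was at most 0.489 CPM in NOR and between 1.56 and 3.29 CPM in CAC (FDR 0.0397). It passed the filter on low counts only through the CAC mice, so that its call is given as a description.

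The list of NRF2 and its regulators held 10 genes, Nfe2l2 included. Mafk, a small MAF partner of NRF2, rose from 34.4, 35.9, 28.9 and 31.7 CPM in NOR to 58.2, 48.3, 60 and 78.8 CPM in CAC (log2 fold change 0.91, SE 0.151, FDR 0.00871). Of the 10 estimates 9 were above 0, with a median of 0.40, and 4 passed the FDR, against 7.79% of all genes in that direction. Named after their values were seen, the other genes that passed were Keap1, which holds NRF2 down (0.43, FDR 0.0275), and Bach1, the competing repressor (0.37, FDR 0.0218).

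From CAC to AM all 10 estimates of this list were below 0, with a median of -0.42, and 0 met both criteria. Bach1 had 46.8 to 56.2 CPM in CAC and 35.9 to 39.7 CPM in AM (-0.46, FDR 0.0207). Keap1 had 130 to 163 CPM in CAC and 101 to 106 CPM in AM (-0.47, FDR 0.0281). Both passed the FDR downward, as 3.22% of all genes did, but changed by less than 1.5-fold. Their groups did not overlap, as for 9.63% of all genes downward, and Keap1 was named after its values were seen. Over the 82 tested genes other than the 10, 1 rose and none fell, against 1.63% and 2.03% of all genes. The 1 was Akr1b10, with 21.3, 25.4, 36.7 and 40.1 CPM in AM (log2 fold change 0.99, FDR 0.0444), and that call was lost without any 1 of CAC 1, CAC 2, CAC 3, CAC 4, AM 2, AM 3 or AM 4. Txn1 passed the FDR downward with -0.52 (FDR 0.019). From CAC to KD 0 of the 82 were called, with 13 at an unadjusted p below 0.05, against 11.1% of all genes. DESeq2 called 2 of the 92 genes of the lists higher, against 230 of 14593 genes, and limma-voom 0. In the regulator list 9 of 10 estimates were below 0 (median -0.33). Akr1b10 had 27.5 to 40.9 CPM in KD, against 12.3 to 19 CPM in CAC (1.2, FDR 0.137).

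**Figure D5:**
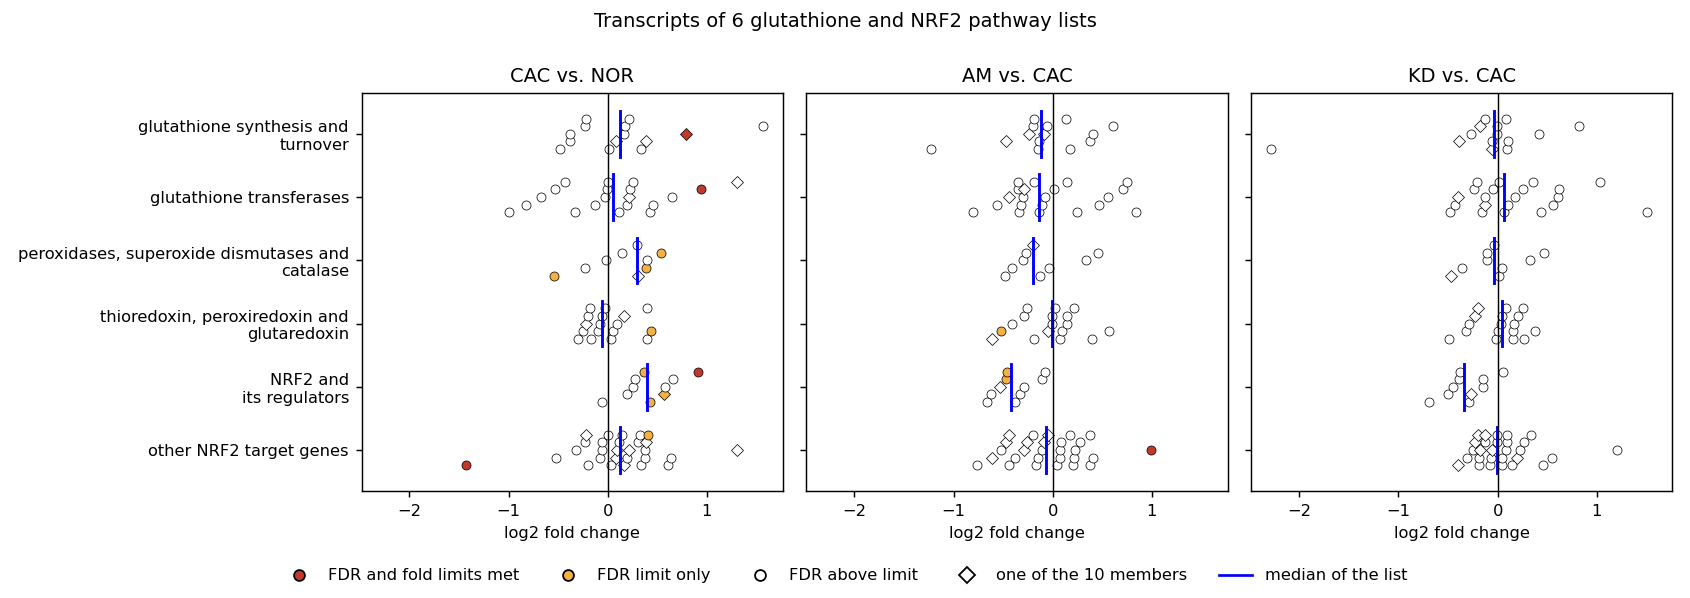
Log2 fold changes (horizontal axis) of the tested genes of 6 pathway lists in 3 panels, CAC against NOR, AM against CAC and KD against CAC, with 1 point per gene, diamonds for the 10 genes and blue lines for list medians. The NRF2 regulator list has its median at 0.40, -0.42 and -0.33 in turn, and red points mark genes that met both criteria.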

How the data were processed

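Poly(A) RNA of gastrocnemius was sequenced on an Illumina instrument. The submitters' processing notes name fastp, Bowtie2, HISAT2 and StringTie 1.3.1, and the builds mm9 and GRCm38 without a role; the counting tool is not given in the sources used here. The authors deposited 1 table with read counts per gene, used for all tests, and FPKM values, which the authors normalized for length and depth and which were used to compare levels between genes. Genes with low counts were removed with filterByExpr (minimum count 10), TMM factors were computed, and each pair of groups was fitted with edgeR 4.0.16 quasi-likelihood tests (R 4.3.3) on the 8 libraries concerned, with Benjamini-Hochberg FDR over all genes tested. Calls needed an FDR no higher than 0.05 and a level at least 1.5 times or at most 0.667 times that of the other group. NOISeq, which the study used, was not used here. Levels per mouse are CPM scaled with TMM factors over all 16 libraries. Library totals ranged from 35913190 to 61032708. The scripts were tested on simulated counts. Alternatives included DESeq2 1.42.0, limma 3.58.1, other scalings and filters, strain terms and leaving out libraries. Genes named are the 10 and, from each list, up to 4 called genes with the largest change, or the gene with the smallest p where none was called. The members and lists were chosen with earlier results of these data known. Start sites and promoters were from RefSeq (GRCm38.p6) and annotation overlaps from GENCODE M21. The deposited table's gene identifiers matched that annotation for 21905 of 21923 genes.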

Additional observations from a re-analysis of the deposited data

Results flagged for a closer look

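In a search for single mice far from the others of their group, 40 groups of 4 mice were tested (10 transcripts in 4 groups) and 2 had a value outside. Chance alone places about 1 in 20 such groups outside. Gpx3, the secreted glutathione peroxidase, was at 380 CPM in AM 1, with the next AM mouse at 179 CPM. The gap made up 0.946 of the group's range, beyond the limit of Dixon's test for 4 values, and AM 1 was also the library with hepatocyte transcripts. Without AM 1 the AM vs. CAC estimate of Gpx3 was the lowest of the fits without 1 mouse, -0.59 in log2, with an FDR of 0.0952. Txnrd1, the thioredoxin reductase, was at 107 CPM in CAC 4, with the next CAC mouse at 69.3 CPM and a gap of 0.893 of the range. Without CAC 4 the CAC vs. NOR estimate of Txnrd1 was -0.04 in place of 0.16.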

How the results depend on the processing

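Over the alternatives, 665 values kept their direction and their side of the criteria, 8 came to pass them, 2 ceased to pass them and 29 changed sign. In no fit was a change of sign seen for a transcript that passed the criteria. Gsr in CAC vs. NOR met both criteria in 19 of 21 alternatives, the exceptions being the 2 fits within 1 labelled strain. The number of the 10 called higher in CAC vs. NOR was 1, and it was 2 with total counts (959 of all 14666 genes) and 2 without a fold change limit (1143). It was 0 in the mice of either labelled strain alone, with 2 mice against 2. Those fits called 125 of 14604 genes higher in C57BL/6 and 0 of 15059 in BABL/c. Without 1 mouse the number ranged from 1 to 3, with 2 without NOR 3 (343 of 14814), 3 without NOR 4 (578 of 14778) and 2 without CAC 2 (596 of 14912). By DESeq2 1 of the 10 was called lower in AM vs. CAC (479 of all 14674 genes) and 1 in AM vs. NOR (20 of all 14738), Srxn1 in both. Without 1 mouse the number by edgeR in AM vs. CAC ranged from 0 to 1, the call being made without CAC 4 (268 of 14892).

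Among the pathway lists, 3 genes rose and 1 fell in CAC vs. NOR. The higher genes numbered 6 with total counts (959 of all 14666 genes tested) and 10 without a fold change limit (1143 of 14666). They numbered 0 in mice labelled C57BL/6 alone (125 of 14604). They also numbered 0 in mice labelled BABL/c alone, where 0 of all 15059 genes were called. Without 1 mouse they numbered 3 to 6, the 6 without NOR 4 (578 of 14778). The lower genes numbered 3 with upper-quartile scaling (918 of all 14666), 2 by DESeq2 (1082), 2 by limma-voom (826) and 2 without a fold change limit (905). They numbered 0 in mice labelled BABL/c (0 of 15059) and 1 to 4 without 1 mouse, the 4 without CAC 4 (726 of 14835). In AM vs. CAC the 1 higher gene became 2 by DESeq2 (641 of all 14674 genes). It became 0 without a count filter (172 of 17718) and with labelled strain as a covariate (115 of 14674). It was also 0 in either labelled strain alone, where 0 of all genes were called. Without the 5 libraries lowest in lymphocyte genes it was 0 (7 of 15150), and it was 0 to 1 without 1 mouse (61 to 179 of all genes). The lower genes were 1 with total counts (336 of all 14674), 4 by DESeq2 (479), 3 without a fold change limit (473) and 0 to 3 without 1 mouse, the 3 without CAC 4 (268 of 14892). In KD vs. CAC higher genes were 2 by DESeq2 (230 of all 14593), 1 with all 16 libraries in 1 fit (90 of 15220) and 1 without KD 2 and KD 3 (64 of 15178). The causes were not tested. Total counts set the median of all genes at 0.14 in CAC vs. NOR and -0.11 in KD vs. CAC, where it is near 0 otherwise.

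The signs that changed belonged to transcripts that did not pass. In CAC vs. NOR Nqo1 was -0.01 by limma-voom, -0.52 in BABL/c and -0.09 to 0.27 without 1 mouse, Txnrd1 was -0.06 in C57BL/6 and -0.04 to 0.25 without 1 mouse, and Srxn1 was 0.44 in C57BL/6. In AM vs. CAC Txnrd1 was 0 with upper-quartile scaling, 0.09 in C57BL/6, 0.16 without the 5 libraries and -0.13 to 0.15 without 1 mouse. In C57BL/6 Gclc was 0.06, Gsta3 0.65 and Gpx3 0.31, and in BABL/c Nqo1 was 0.41. In KD vs. CAC, C57BL/6 gave 0.19 for Gclc, 0.78 for Gsta3 and -0.43 for Nqo1, and BABL/c gave 0.11 for Gstm1 and 0.25 for Srxn1. Without 1 mouse Gclc ranged from -0.21 to 0.04, Gstm1 from -0.24 to 0.05 and Nqo1 from -0.01 to 0.47. Without the 5 libraries Gsta3 was 0.26 and Nqo1 -0.55, and without KD 2 and KD 3 they were 0.39 and -0.47.

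The shared replicate numbers name different mice, and the correlation of same-numbered mice was not above 0.1 in every pair of any comparison. It ran from -0.173 to 0.64 in CAC vs. NOR, where 3 of 4 were positive, from -0.57 to 0.0301 in AM vs. CAC, from -0.675 to -0.183 in KD vs. CAC and from 0.0562 to 0.579 in AM vs. KD, so the numbers were not taken to pair the mice. With the replicate block the pathway genes lower in CAC vs. NOR became 2 (607 of all 14666 genes). Those higher in AM vs. CAC became 0, where that fit called 0 of all 14674 genes in either direction. The counts among the 10 were as without the block.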
